A study of Mus musculus with 24 samples.

Results

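Mouse peritoneal metastases labelled as treated with propionate were compared with control metastases, gene by gene and gene family by gene family. The comparison holds 12 of the series' 24 polyadenylated RNA libraries: 6 labelled with propionate and 6 labelled control, and the other 12 are labelled with butyrate or with both acids. The labels give the tissue of every sample as peritoneum and name propionate as the only treatment of its group. They state no strain, genotype, dose, time, tumour line, sex or age, and give the treatment of the controls as none. Each group's libraries carry replicate numbers, but nothing in the labels says that they came from separate animals, so a p-value here speaks of the spread among libraries, which may be technical. Expression is given as TPM, a unit that corrects for transcript length and sums to 1000000 in each library.

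Propionate is a short-chain fatty acid that gut bacteria make from dietary fibre. It reaches cells through monocarboxylate carriers, is sensed by G protein-coupled receptors such as FFAR2, and is burnt in mitochondria by way of propionyl-CoA and succinyl-CoA, the route that also takes up the carbon of branched-chain amino acids and odd-chain lipids. Like butyrate, it can inhibit zinc-dependent histone deacetylases, the enzymes that remove acetyl groups from histones. The peritoneum is lined by mesothelial cells, which express the transcription factor WT1, over connective tissue, fat and the muscle of the body wall.

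The 12 libraries differed widely in tissue content within each group. Skeletal muscle markers summed to 25410 to 98020 TPM in control and 24580 to 124100 TPM in propionate libraries. All 14 mesothelium markers were measured, none was at 0 in a whole group, and they summed to 21.65 to 1935 TPM in control libraries (median 1135) and to 35.83 to 1594 TPM in propionate libraries (median 83.13). Wt1 was 236.9 TPM at the median of control and 11.95 TPM at the median of propionate libraries, with ranges of 0.65 to 367.81 and 1.07 to 335.82 TPM. The low end was held by control replicate 3 and propionate replicates 1, 2, 5 and 6, and the high end by the other 5 control libraries and propionate replicates 3 and 4. Whether these crossing libraries held other tissue than their group or carry the wrong label cannot be told from the labels and was not tested, and it bears on every difference between the groups. The groups overlapped over nearly the whole range, and the limma difference of -2.58 ± 1.68 on the log2 scale had an unadjusted p of 0.139. In bulk tissue fewer cells of a type and less RNA per cell cannot be told apart. A library's genes at 1 TPM or more numbered 12618 to 14949, and mitochondrially encoded transcripts took 12.751 to 24.822% of its TPM. Depth is unknown, because TPM keeps no counts.

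No gene passed the test. Of 15163 genes tested with limma on log2(TPM + 1), 0 (0%) had a Benjamini-Hochberg adjusted p below 0.05, and the smallest adjusted p was 0.333. At an unadjusted p below 0.05 the propionate group was higher in 66 genes (0.435%) and lower in 1385 (9.13%). That last count rested on single libraries, since it was 228 without propionate replicate 1 and 6177 without propionate replicate 3, and the counts in the lists moved with it. The excess of lower genes went with a shift of the whole table: the median gene differed by -0.30 on the log2 scale, and 79.3% of all genes were below 0. Median-of-ratios scaling brought that median to 0.01, the share below 0 to 49.2% and the counts to 513 higher (3.38%) and 780 lower (5.14%). Quantile normalization gave 564 higher (3.72%) and 693 lower (4.57%), and TPM rescaled without mitochondrially encoded transcripts gave 86 (0.568%) and 1299 (8.58%). List medians are therefore read against -0.30, the median of all genes, and are also given after median-of-ratios scaling, where all genes stand at 0.01. Genes counted as higher or lower are those at an unadjusted p below 0.05, and none of them passed the adjusted test. Where a count stands alone, it is to be read against 0.435% higher and 9.13% lower among all genes. After median-of-ratios scaling these shares are 3.38% and 5.14%. Where tissue covariates are named, the first 2 principal components of 6 tissue marker lists (fat, skeletal and smooth muscle, mesothelium, ovary, and other organs) entered the fit, which left 82 genes higher (0.541%) and 663 lower (4.37%) in all, a median gene at -0.09 and 73.7% of genes below 0. Of the 76 named genes that were lower, 54 had a difference over 1.5 times smaller after median-of-ratios scaling and 58 with tissue covariates. Of the 13 named genes that were higher, 5 had a difference over 1.5 times larger after that scaling and 4 one over 1.5 times smaller with tissue covariates. Differences are propionate minus control on the log2(TPM + 1) scale, which understates the change of low genes, and are given ± SE. For each gene named with an unadjusted p below 0.05 the adjusted p was 0.333.

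Groups that did not overlap were rarer still. All 6 propionate values lay above all 6 control values in 2 genes (0.0132%) and below them in 4 (0.0264%). The higher pair were Aimp1, a scaffold protein of the tRNA synthetase complex, and Fbxo8, an F-box protein. Aimp1 ran from 63.62 through a median of 68.16 to 69.37 TPM in control and from 70.24 through 73.52 to 76.76 TPM in propionate libraries. That separation was narrow, and limma, which shares the spread of all 24 libraries, gave 0.12 ± 0.09 with an unadjusted p of 0.201. Fbxo8 ran from 10.51 through 12.61 to 15.85 TPM in control and from 16.24 through 16.76 to 17.43 TPM in propionate libraries, with a difference of 0.36 ± 0.17 and an unadjusted p of 0.0486. The 4 lower genes were Nfil3, Oas2, Agpat5 and Gripap1, a recycling endosome protein. Gripap1 ran from 15.17 through 18.09 to 21.79 TPM in control and from 11.64 through 14.38 to 15.05 TPM in propionate libraries. Its difference of -0.35 ± 0.21 had an unadjusted p of 0.103, and it turned to 0.005 under median-of-ratios scaling and 0.024 under quantile normalization.

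The receptors and carriers of propionate showed little. Of 6 tested short-chain fatty acid receptors among 9 listed, 0 were higher and 0 lower, and their median was -0.003 (0.17 after median-of-ratios scaling). Ffar2, the propionate and acetate receptor, was 0.37 TPM at its lowest, 0.64 at its median and 1.24 at its highest in control libraries, against 0.37, 0.64 and 1.12 TPM in propionate libraries. Its groups overlapped throughout, and its difference of -0.06 ± 0.36 changed sign to 0.06 under median-of-ratios scaling and 0.22 under quantile normalization. Hcar2, the butyrate and ketone body receptor, ran from 0.64 through 0.89 to 1.15 TPM in control and from 0.82 through 1.045 to 1.78 TPM in propionate libraries (0.19 ± 0.29, unadjusted p = 0.522). Ffar3, the other propionate receptor, did not pass the filter on low values. Among 13 tested monocarboxylate carriers and chaperones of 18 listed, 1 was lower and 0 higher, with a median of -0.21 (0.11 after median-of-ratios scaling). That one was Slc16a1, which encodes the carrier MCT1. It ran from 16.97 through 21.57 to 26.93 TPM in control and from 9.45 through 15.28 to 20.89 TPM in propionate libraries, with a difference of -0.50 ± 0.21 and an unadjusted p of 0.0232. The propionate values were mostly below the controls, with overlap between 16.97 and 20.89 TPM.

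The mitochondrial route that burns propionate had no gene past the threshold in the deposited TPM. None of the 17 genes from propionyl-CoA to succinyl-CoA was higher or lower at an unadjusted p below 0.05. Their median of 0.015 lay above that of all genes, and it was 0.37 after median-of-ratios scaling. None of the 21 genes of branched-chain amino acid breakdown, which feeds the same route, passed either (median 0.005), and after median-of-ratios scaling 4 of the 21 were higher, against 3.38% of all genes, and the median was 0.34. With tissue covariates both medians were near 0 (-0.02 and -0.01). The 6 tested short-chain acyl-CoA synthetases, which charge the acids with coenzyme A, had a median of 0.21 (0.51 after median-of-ratios scaling and -0.03 with tissue covariates) and none past that threshold. Acss1, the mitochondrial acetyl-CoA synthetase, ran from 5.04 through 12.32 to 43.27 TPM in control and from 9.29 through 18.36 to 37.8 TPM in propionate libraries, overlapping over most of that range (0.42 ± 0.35, unadjusted p = 0.247).

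The 11 zinc-dependent histone deacetylases, the enzymes that propionate can inhibit, had a median of -0.32, close to that of all genes, and of 0.03 after median-of-ratios scaling. At an unadjusted p below 0.05, 2 of the 11 (18.2%, against 9.13% of all genes) were lower, Hdac5 and Hdac7. After median-of-ratios scaling 0 of the 11 were lower, and with tissue covariates also 0. Hdac7 ran from 13.04 through 24.77 to 32.0 TPM in control and from 9.65 through 14.75 to 27.11 TPM in propionate libraries (-0.58 ± 0.26, unadjusted p = 0.0357). Hdac5 ran from 33.32 through 43.94 to 48.08 TPM in control and from 29.08 through 31.68 to 44.19 TPM in propionate libraries. Its difference of -0.32 ± 0.14 became 0.05 with median-of-ratios scaling. The class I enzymes Hdac1, Hdac2 and Hdac3 differed by -0.70, -0.21 and -0.29, each with overlapping groups and an unadjusted p above 0.05, and Hdac2 and Hdac3 changed sign under median-of-ratios scaling (0.15 and 0.08) and quantile normalization (0.092 and 0.002). Of 25 genes of the corepressor complexes that carry these enzymes, 4 (16%, against 9.13% of all genes) were lower, among them Sap30, a subunit of the SIN3 complex. All 25 differences were below 0, against 79.3% of all genes, with a median of -0.54, and after median-of-ratios scaling 18 were below 0 with a median of -0.20. Sap30 ran from 9.83 through 11.68 to 12.94 TPM in control and from 3.16 through 5.785 to 13.32 TPM in propionate libraries (-0.75 ± 0.28, unadjusted p = 0.0145). Its highest value of all belonged to a propionate library, so the groups overlapped.

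Il15 had the smallest p among higher genes. It encodes interleukin-15, a cytokine of the common gamma-chain family that keeps natural killer cells and memory CD8 T cells alive and that skeletal muscle also makes. It ran from 5.33 through 8.46 to 12.48 TPM in control and from 11.56 through 15.09 to 18.15 TPM in propionate libraries. Only control replicates 3 and 4 reached the lowest propionate libraries, and the propionate value was the larger in 33 of 36 pairs of libraries. The difference was 0.73 ± 0.19 with an unadjusted p of 0.000758. Median-of-ratios scaling gave 1.07 and tissue covariates gave 0.64. Butyrate and combination libraries were also at 14.1 ± 2.61 and 14.5 ± 2.60 TPM (SD, n = 6 each). The list of 7 gamma-chain cytokines also holds Tslp, a related cytokine that does not use the common gamma chain. Only Il15 and Tslp could be tested, and Tslp differed by 0.13 ± 0.23. None of the 13 tested receptors and kinases listed for these cytokines was higher or lower at an unadjusted p below 0.05 (median -0.26, or 0.04 after median-of-ratios scaling). Il15ra, which presents the cytokine to other cells, ran from 5.2 through 10.23 to 23.24 TPM in control and from 4.92 through 11.6 to 18.4 TPM in propionate libraries. Those ranges nearly coincided (0.04 ± 0.30, unadjusted p = 0.88).

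Genes of the lymphocytes that respond to interleukin-15 did not part the groups. Of 16 tested T cell markers, 0 were higher and 0 lower, with a median of 0.04 (0.13 after median-of-ratios scaling), and of 8 tested cytotoxic and natural killer genes the counts were also 0 and 0, with a median of 0.17 (0.37 after that scaling). Neither median changed sign with median-of-ratios scaling, quantile normalization or tissue covariates. With tissue covariates they were larger, 0.40 for T cell markers and 0.55 for cytotoxic genes, against -0.09 for all genes. In that fit 0 T cell markers and 1 cytotoxic gene were below 0, against 73.7% of all genes. The counts higher and lower stayed at 0 and 0 in both lists. T cell markers summed to 10.29 to 42.6 TPM in control and 14.18 to 85.66 TPM in propionate libraries. Gzmb, which encodes the cytotoxic protease granzyme B, ran from 0.05 through 0.23 to 0.79 TPM in control and from 0.19 through 0.615 to 1.37 TPM in propionate libraries (0.37 ± 0.27, unadjusted p = 0.189). Cd8a, the co-receptor of cytotoxic T cells, ran from 0.11 through 0.695 to 1.12 TPM in control and from 0.11 through 0.375 to 1.91 TPM in propionate libraries. Its difference of 0.03 ± 0.64 was far smaller than its error. Cd274, which encodes PD-L1, ran from 2.59 through 3.715 to 6.39 TPM in control and from 2.79 through 4.33 to 9.38 TPM in propionate libraries (0.22 ± 0.32), and Pdcd1, which encodes its receptor PD-1, was at or below 2.11 TPM in each of the 12 libraries.

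**Figure D1:**
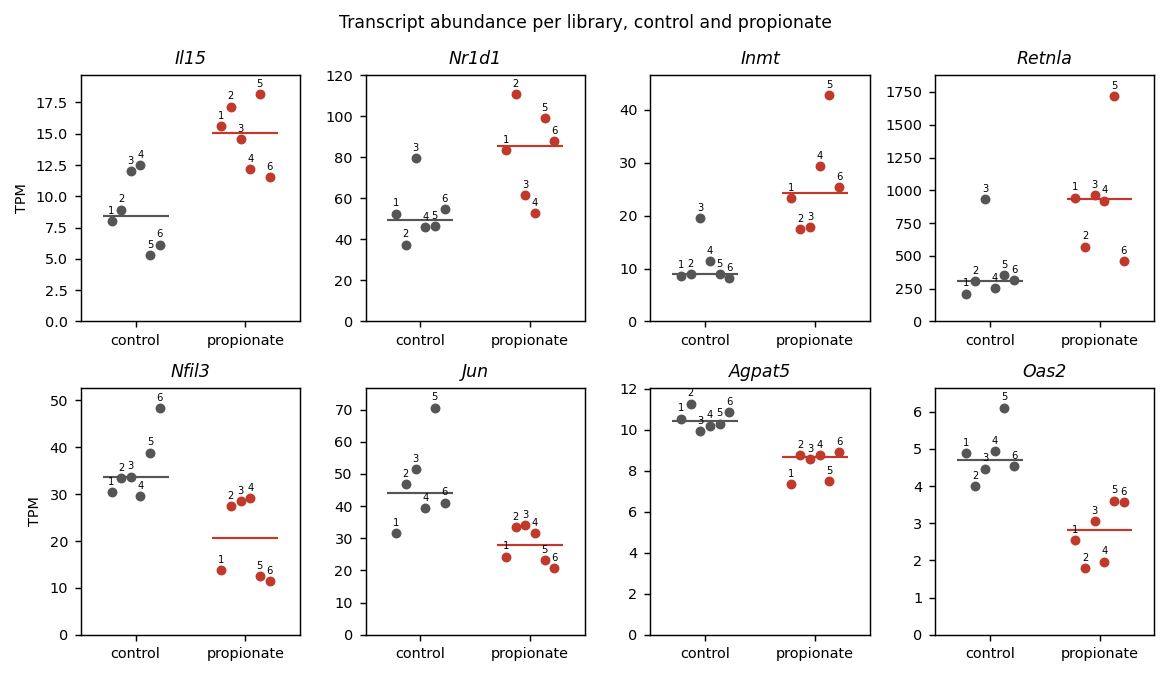
TPM of 4 genes with higher and 4 with lower propionate values, 1 panel a gene: each number is a library, plotted by its replicate number in the control and the propionate column, and the line is the group median. Nfil3, Agpat5 and Oas2 show no overlap between the groups, and in Inmt and Retnla control replicate 3 lies apart from the other control libraries, among the propionate values.

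Several of the other higher genes are known from stromal, macrophage or eosinophil biology. Inmt, an indolethylamine methyltransferase of stromal cells, ran from 8.23 through 8.91 to 19.49 TPM in control and from 17.41 through 24.35 to 42.75 TPM in propionate libraries. Its difference was 1.17 ± 0.40 with an unadjusted p of 0.00786. Control replicate 3 alone reached the propionate range. Retnla, a secreted protein of alternatively activated macrophages and of fat, ran from 212.02 through 311.2 to 932.96 TPM in control and from 459.92 through 932.7 to 1717.89 TPM in propionate libraries (1.29 ± 0.47, unadjusted p = 0.0121). The control value of 932.96 TPM again came from replicate 3, and the other 5 control libraries lay below all propionate libraries. Ear2, an eosinophil-associated ribonuclease, ran from 4.56 through 12.12 to 27.59 TPM in control and from 18.36 through 27.48 to 50.73 TPM in propionate libraries (1.11 ± 0.43, unadjusted p = 0.0158). It belongs to a family of near-identical copies among which reads can be split, so its value is uncertain. Ccrl2, an atypical chemerin receptor, was higher by 0.39 ± 0.15 (unadjusted p = 0.0181). Macrophage and monocyte markers as a list gave 0 higher and 0 lower of 19 tested, with a median of -0.52 (-0.16 after median-of-ratios scaling).

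The remaining higher genes among those with the smallest p were of different kinds, and most of the 66 higher genes are not described here. Akr1c18, a hydroxysteroid dehydrogenase that breaks down progesterone, ran from 0.44 through 1.165 to 3.25 TPM in control and from 2.43 through 4.04 to 6.18 TPM in propionate libraries (1.12 ± 0.37, unadjusted p = 0.00674). Galnt15, an enzyme that starts O-linked glycans, ran from 5.58 through 6.245 to 10.69 TPM in control and from 8.06 through 12.27 to 14.91 TPM in propionate libraries (0.62 ± 0.21, unadjusted p = 0.00689). In both genes the groups overlapped at a few libraries. Tfb2m, a transcription factor of the mitochondrial genome, ran from 14.24 through 17.39 to 21.22 TPM in control and from 18.69 through 22.49 to 26.6 TPM in propionate libraries (0.36 ± 0.14, unadjusted p = 0.0148). Dkk2, a secreted Wnt modulator, differed by 0.60, Cd59b, a complement inhibitor, by 0.78 and the cytokine-like Cytl1 by 0.82, each at an unadjusted p between 0.0157 and 0.0178. Of 36 genes of Wnt ligands, receptors and targets, 1 was higher, Dkk2, and 1 lower, the co-receptor Lrp5 (-0.35 ± 0.15), with a median of -0.53 (-0.26 after median-of-ratios scaling).

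Among the genes of the circadian clock, Nr1d1 was higher and Nfil3 lower. NR1D1, also called REV-ERB alpha, is a nuclear receptor that represses Bmal1 and Nfil3, and NFIL3 is a leucine zipper repressor of the clock's output genes that also acts in natural killer cell development. Nr1d1 ran from 37.46 through 49.56 to 79.57 TPM in control and from 52.63 through 85.63 to 110.93 TPM in propionate libraries (0.63 ± 0.20, unadjusted p = 0.00437). Control replicate 3 was the one control library well inside the propionate range, and the propionate value was larger in 33 of 36 pairs. Median-of-ratios scaling gave 1.00 and tissue covariates gave 0.41, and over all 24 libraries Nr1d1 followed muscle genes such as Actn3 (Spearman's rho 0.843, a description). Nfil3 ran from 29.66 through 33.58 to 48.33 TPM in control and from 11.49 through 20.56 to 29.11 TPM in propionate libraries. No pair of libraries crossed, although propionate replicate 4 at 29.11 TPM came within 1 TPM of control replicate 4 at 29.66. The difference was -0.86 ± 0.28 with an unadjusted p of 0.00557, and it was -0.50 with median-of-ratios scaling. Leaving out each library in turn left it between -0.98 and -0.73.

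The other clock genes gave a mixed picture. Of 5 clock activators 1 was lower, Npas2, a partner of BMAL1 in place of CLOCK. It ran from 1.59 through 2.38 to 3.24 TPM in control and from 0.96 through 1.57 to 1.79 TPM in propionate libraries (-0.48 ± 0.18, unadjusted p = 0.0158). Bmal1 itself ran from 10.06 through 14.61 to 22.73 TPM in control and from 9.29 through 12.09 to 18.3 TPM in propionate libraries, with wide overlap. Its difference of -0.25 ± 0.17 (unadjusted p = 0.166) changed sign to 0.11 under median-of-ratios scaling and 0.13 under quantile normalization. With tissue covariates it was -0.41 instead (limma, unadjusted p = 0.00775, adjusted p = 0.817). In that fit 2 of the 5 activators were lower, against 4.37% of all genes. Clock differed by -0.39 ± 0.21, which became 0.02 under quantile normalization, and Rora, the activator that competes with NR1D1, by 0.36 ± 0.27. Of 17 tested repressors and outputs of the clock, 1 was higher and 2 lower at an unadjusted p below 0.05, with a median of 0.03. The lower pair were Nfil3 and Csnk1e, a casein kinase that marks PER proteins for decay (-0.71 ± 0.32, unadjusted p = 0.0359). After median-of-ratios scaling the counts were 6 higher and 0 lower, against 3.38% and 5.14% of all genes, and the median was 0.39.

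**Figure D2:**
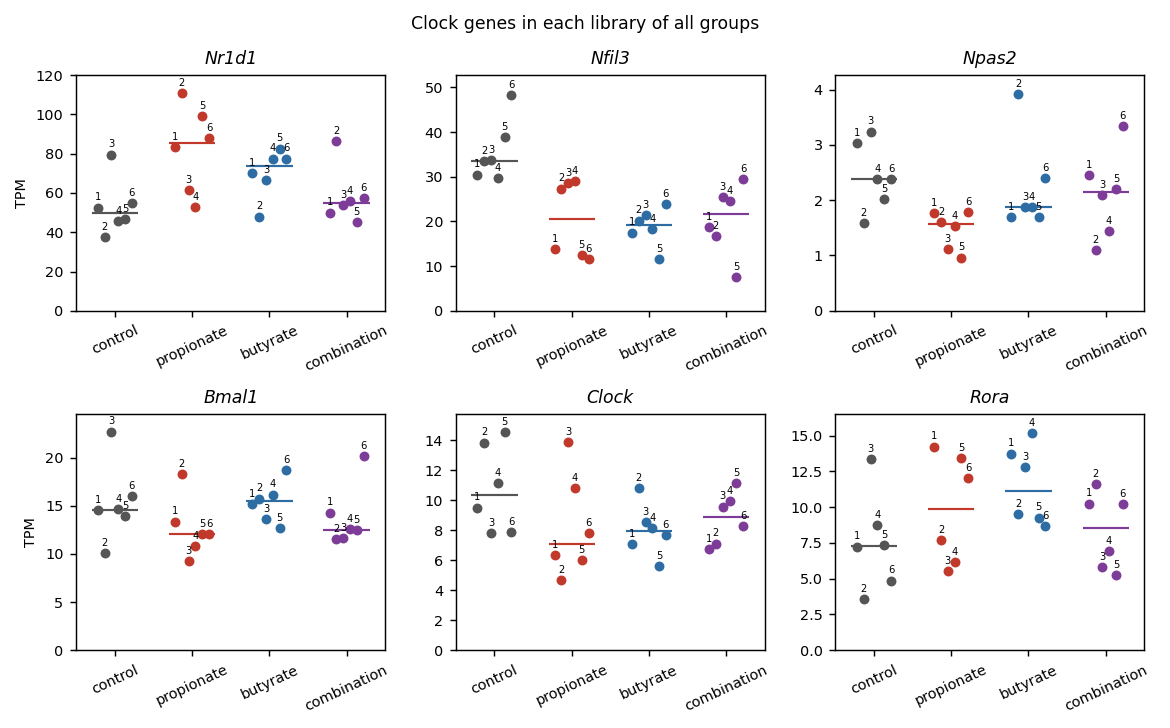
TPM of 6 clock genes in the 4 groups of the series, each number a library plotted by its replicate number and each line a group median. Nr1d1 is higher and Nfil3 lower in propionate than in control libraries, while Bmal1, Clock and Rora overlap over most of their range.

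Jun and several of its partners were among the lower genes. JUN and FOS proteins pair to form AP-1, a transcription factor that cells raise within minutes of growth factor, stress or injury signals, and JUN acts on a variant AP-1 element in its own promoter. The sequence shown for that reason is the 250 bases before the annotated start of Jun, at chr4:95052223-95052472 on the minus strand of GRCm38.p6, as given by RefSeq. That build is not the one the submitters name, so it is used for names and sequence only. The capitals mark the element TGACATCA, which starts 45 bases before the gene start and was searched on both strands.
Jun: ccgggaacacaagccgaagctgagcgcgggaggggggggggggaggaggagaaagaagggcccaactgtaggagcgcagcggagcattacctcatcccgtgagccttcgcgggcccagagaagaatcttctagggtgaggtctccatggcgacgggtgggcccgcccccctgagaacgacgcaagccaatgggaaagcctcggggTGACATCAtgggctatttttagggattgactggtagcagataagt
These letters occur in 1189 of 32851 promoter windows of 300 bases (3.62%). Jun ran from 31.6 through 44.0 to 70.6 TPM in control and from 20.7 through 27.93 to 34.08 TPM in propionate libraries. Control replicate 1 was the one control library inside the propionate range. The propionate value was larger in 2 of 36 pairs, and the difference was -0.71 ± 0.21 with an unadjusted p of 0.00276. Median-of-ratios scaling gave -0.34 and tissue covariates gave -0.68. The table lists 2 Jun transcripts with identical values in all libraries, as it does for 78 of the tested gene names, so the summed Jun level may count the same transcript more than once.

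Of 16 tested AP-1 subunits, 9 (56.2%, against 9.13% of all genes) were lower at an unadjusted p below 0.05. Differences below 0 numbered 14, near the 79.3% of all genes. The median was -0.72 with the deposited TPM and -0.36 after median-of-ratios scaling, when 5 were lower and 1 higher, and -0.28 with tissue covariates, when 3 were lower and 1 higher. Jund, a JUN protein present in resting cells, ran from 24.32 through 77.93 to 103.56 TPM in control and from 14.15 through 21.96 to 88.64 TPM in propionate libraries (-1.12 ± 0.43, unadjusted p = 0.0162, or -0.50 with tissue covariates). Fos ran from 8.25 through 14.93 to 95.18 TPM in control and from 2.86 through 5.98 to 19.5 TPM in propionate libraries (-1.33 ± 0.51, unadjusted p = 0.0162). The Fos value of 95.18 TPM belonged to control replicate 5 alone. Mafg, a small MAF protein, differed by -0.45 ± 0.19 (unadjusted p = 0.031). The 5 libraries with the lowest AP-1 medians were the 5 with the lowest Wt1, control replicate 3 among them, and the part of tissue content in the result was not tested. Without control replicate 5 the count of lower subunits was 2, and without propionate replicate 3 it was 10. None of the 13 AP-1 genes with a promoter window in RefSeq held the AP-1 site TGACTCA in it.

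Other genes of the same early response pointed the same way. Of 28 tested, 7 (25%, against 9.13% of all genes) were lower, with a median of -0.51. Differences below 0 numbered 27, a direction that 79.3% of all genes shared. After median-of-ratios scaling 3 were lower, 20 were below 0, against 49.2% of all genes, and the median was -0.20. With tissue covariates 5 were lower and 1 higher, 25 were below 0, against 73.7% of all genes, and the median was -0.28. Ccn1, a matricellular protein also known as CYR61, ran from 23.44 through 33.87 to 56.64 TPM in control and from 14.89 through 20.77 to 26.96 TPM in propionate libraries. Its propionate value was larger in 1 of 36 pairs, and the difference was -0.72 ± 0.25 with an unadjusted p of 0.00987. Rhob, a small GTPase of endosomes, ran from 27.19 through 90.18 to 104.84 TPM in control and from 19.73 through 28.86 to 102.69 TPM in propionate libraries (-0.95 ± 0.43, unadjusted p = 0.0363, or -0.39 with tissue covariates). In Rhob propionate replicates 3, 4 and 6 lay within the control range. Csrnp1, a nuclear protein first found downstream of AXIN, differed by -0.92 and the growth arrest gene Gadd45g by -0.58. Leaving out 1 library moved the count of lower genes in the list from 1 to 14.

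Inhibitors that growth factor signalling switches on against itself had lower values as well. All 22 tested feedback inhibitors of receptor tyrosine kinases had differences below 0, as did 79.3% of all genes, and 4 (18.2%) were lower, against 9.13% of all genes. Their median was -0.46. After median-of-ratios scaling it was -0.17, with 14 below 0 and 3 lower, and with tissue covariates it was also -0.17, set against -0.09 for all genes. Spry4, a Sprouty protein that dampens the RAS to ERK cascade, ran from 2.39 through 3.53 to 4.07 TPM in control and from 1.03 through 1.79 to 3.69 TPM in propionate libraries. Propionate replicate 3, at 3.69 TPM, was the one propionate library in the upper control range (-0.65 ± 0.20, unadjusted p = 0.00342). Dusp5, a nuclear ERK phosphatase, ran from 1.84 through 8.08 to 14.01 TPM in control and from 0.59 through 1.84 to 10.93 TPM in propionate libraries (-1.27 ± 0.52, unadjusted p = 0.0236, or -0.53 with tissue covariates). The other pair were Sulf2, a heparan sulfate sulfatase (-1.09), and Spred2 (-0.49).

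Growth factors as a family had a median above that of all genes. Of 31 growth factors 4 (12.9%, against 9.13% of all genes) were lower, while the list median was -0.11, or 0.20 after median-of-ratios scaling. Vegfa, the main angiogenic factor, ran from 83.08 through 122.9 to 257.48 TPM in control and from 49.6 through 91.88 to 107.88 TPM in propionate libraries (-0.65 ± 0.27, unadjusted p = 0.0239). Pdgfb, which recruits pericytes, ran from 14.4 through 26.53 to 36.81 TPM in control and from 6.67 through 10.62 to 32.88 TPM in propionate libraries (-0.87 ± 0.32, unadjusted p = 0.0125). Csf1, the macrophage growth factor, differed by -0.88 ± 0.39. In Pdgfb and Csf1 the highest propionate library lay above the control median, and in Vegfa it lay below. Of 29 growth factor receptors 5 (17.2%, against 9.13% of all genes) were lower, among them Mst1r, the receptor of macrophage-stimulating protein (-0.89 ± 0.40), and Fgfr3 (-0.46 ± 0.20). Their median was -0.34, or 0.03 after median-of-ratios scaling and -0.02 under quantile normalization. Acvr1, a type I receptor for bone morphogenetic proteins, ran from 11.46 through 20.93 to 25.95 TPM in control and from 9.16 through 10.49 to 20.63 TPM in propionate libraries (-0.60 ± 0.20, unadjusted p = 0.00603).

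Igf2bp2 was lower than in control and, before adjustment only, than in butyrate libraries. It encodes an RNA-binding protein that steadies the messengers of growth genes and is named for IGF2. It ran from 1.57 through 2.945 to 5.09 TPM in control and from 0.73 through 1.145 to 2.69 TPM in propionate libraries. Propionate replicate 2 at 2.69 TPM was the highest, and the other propionate values were at or below 1.45 TPM. The difference from control was -0.80 ± 0.25 (unadjusted p = 0.00447), and that from butyrate libraries, which averaged 2.72 ± 1.71 TPM, was -0.59 with an unadjusted p of 0.029 and an adjusted p of 1 by limma. Butyrate libraries ran from 1.44 through 1.88 to 5.65 TPM, so their mean lay well above their median. Across all genes 0 passed an adjusted p of 0.05 between propionate and butyrate by limma, and 107 of 15163 had an unadjusted p below 0.05. Control, propionate and butyrate libraries enter 1 fit, and both contrasts use the same propionate libraries.

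**Figure D3:**
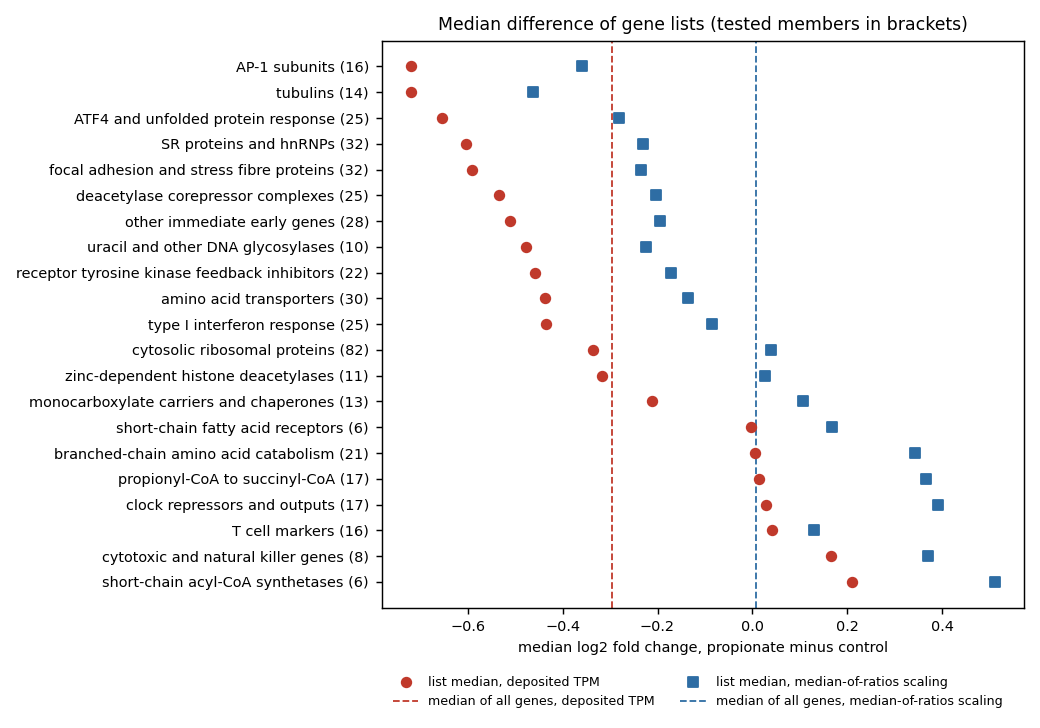
Median difference between propionate and control over the tested genes of 21 lists on the log2(TPM + 1) scale: circles from the deposited TPM, squares after median-of-ratios scaling, dashed lines the medians of all 15163 genes under each. Tubulins, AP-1 subunits and the unfolded protein response lie to the left of both dashed lines, and ribosomal proteins lie close to them.

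Some cytoskeletal and adhesion genes were lower. Pdlim1, which has a PDZ and a LIM domain and links alpha-actinin to stress fibres, had the smallest p among lower genes. It ran from 85.03 through 99.97 to 115.2 TPM in control and from 46.35 through 59.78 to 87.43 TPM in propionate libraries. Propionate replicate 3 alone, at 87.43 TPM, passed the lowest control libraries, and the larger value was in propionate in 2 of 36 pairs. The difference was -0.64 ± 0.18 with an unadjusted p of 0.00135, or -0.27 with median-of-ratios scaling. Of its family of 13 PDZ-LIM proteins and alpha-actinins 4 (30.8%, against 9.13% of all genes) were lower, Pdlim1, Pdlim4 (-0.97), Actn1 (-1.31) and Actn4 (-0.97). The family median was nevertheless -0.01, and 0.37 after median-of-ratios scaling.

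Tubulins, the subunits of microtubules, had 7 of 14 tested (50%, against 9.13% of all genes) lower and 12 differences below 0, the latter near the share of all genes. Their median was -0.72, or -0.46 after median-of-ratios scaling, when 6 were lower and 9 below 0. With tissue covariates the median was -0.34, against -0.09 for all genes. In that fit 6 were lower, against 4.37% of all genes, and all 14 were below 0, against 73.7%. Tuba1a ran from 78.77 through 281.6 to 370.42 TPM in control and from 48.17 through 76.4 to 334.1 TPM in propionate libraries (-1.22 ± 0.47, unadjusted p = 0.017, or -0.57 with tissue covariates). Tubb2a ran from 21.56 through 84.36 to 116.36 TPM in control and from 14.99 through 21.39 to 104.26 TPM in propionate libraries (-1.17 ± 0.47, unadjusted p = 0.0201). In both, control replicate 3 and propionate replicates 1, 2, 5 and 6 held the 5 lowest values, the libraries with the lowest Wt1. Without propionate replicate 1 or 5 the count of lower tubulins was 1, and without control replicate 3 or propionate replicate 3 it was 10. Tubulins are near-identical to one another, so reads can be split between them.

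Of 32 focal adhesion and stress fibre proteins 9 (28.1%, against 9.13% of all genes) were lower, with a median of -0.59 (-0.24 after median-of-ratios scaling). After that scaling 8 were lower, and with tissue covariates 2. Ptk2, the focal adhesion kinase, ran from 14.18 through 60.62 to 86.74 TPM in control and from 9.06 through 12.68 to 74.35 TPM in propionate libraries (-1.24 ± 0.55, unadjusted p = 0.0323, or -0.41 with tissue covariates). Ilk, the integrin-linked kinase, ran from 55.8 through 104.0 to 138.34 TPM in control and from 42.19 through 51.25 to 120.88 TPM in propionate libraries (-0.61 ± 0.28, unadjusted p = 0.04). The groups overlapped broadly, and the count of 9 became 0 without any 1 of control replicates 2, 5 and 6 and propionate replicates 1, 2, 5 and 6. Of 11 laminins and nidogens, the basement membrane proteins, 5 (45.5%, against 9.13% of all genes) were lower, among them Lamb1 (-0.75 ± 0.33). The list median was -0.11, and 0.26 after median-of-ratios scaling, when 4 were lower. With tissue covariates 2 were lower. The metalloprotease Adamts1 ran from 10.77 through 12.89 to 21.98 TPM in control and from 5.74 through 9.42 to 11.74 TPM in propionate libraries (-0.64 ± 0.21, unadjusted p = 0.0056). Adamtsl2, a microfibril protein of the same superfamily without protease activity, ran from 1.1 through 1.59 to 2.53 TPM in control and from 0.36 through 0.725 to 1.23 TPM in propionate libraries (-0.64 ± 0.19, unadjusted p = 0.00268). Both metalloprotease-family genes overlapped in 1 or 2 pairs of 36. Of 15 ephrins and Eph receptors, which guide cell contacts, 3 (20%, against 9.13% of all genes) were lower, with Epha2 at -1.26 ± 0.50. Their median was -0.43 (-0.30 after median-of-ratios scaling).

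Many genes of the unfolded protein response and of ATF4 had lower values. This response senses misfolded protein in the endoplasmic reticulum and raises chaperones there through ATF6 and XBP1, while ATF4 raises genes of amino acid supply. Of 25 tested, 9 (36%, against 9.13% of all genes) were lower, and the median was -0.66. Differences below 0 numbered 23, against 79.3% of all genes. After median-of-ratios scaling 7 were lower, 18 were below 0 and the median was -0.28, and with tissue covariates it was -0.20, set against -0.09 for all genes. ATF6 and its partner NF-Y bind the ER stress element, here the letters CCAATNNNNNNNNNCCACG on either strand. It occurs in 39 of 32851 promoter windows (0.119%) and in 4 of the 24 windows of this list, those of Hspa5, Hsp90b1, Pdia6 and Creld2, which all encode chaperones or folding factors of the endoplasmic reticulum. The 250 bases before each start are shown with the element in capitals, from RefSeq on GRCm38.p6: Hspa5 at chr2:34771840-34772089 on the plus strand, Hsp90b1 at chr10:86705445-86705694 on the minus strand, Pdia6 at chr12:17266339-17266588 and Creld2 at chr15:88819396-88819645, both on the plus strand.
Hspa5: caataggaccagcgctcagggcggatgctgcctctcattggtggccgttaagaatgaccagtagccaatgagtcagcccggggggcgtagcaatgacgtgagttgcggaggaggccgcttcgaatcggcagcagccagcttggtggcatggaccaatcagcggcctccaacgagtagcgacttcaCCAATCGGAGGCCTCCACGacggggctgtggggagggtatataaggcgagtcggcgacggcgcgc
Hsp90b1: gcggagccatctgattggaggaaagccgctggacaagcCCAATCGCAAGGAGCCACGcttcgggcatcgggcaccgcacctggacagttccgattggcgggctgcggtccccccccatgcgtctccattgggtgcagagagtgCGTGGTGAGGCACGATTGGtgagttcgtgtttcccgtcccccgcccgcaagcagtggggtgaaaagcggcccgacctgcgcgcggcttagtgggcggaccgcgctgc
Pdia6: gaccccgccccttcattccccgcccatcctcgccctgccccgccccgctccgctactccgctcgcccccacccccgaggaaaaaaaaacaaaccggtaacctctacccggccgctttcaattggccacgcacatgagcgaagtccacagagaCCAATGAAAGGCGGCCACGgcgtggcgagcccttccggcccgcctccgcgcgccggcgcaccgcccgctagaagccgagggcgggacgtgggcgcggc
Creld2: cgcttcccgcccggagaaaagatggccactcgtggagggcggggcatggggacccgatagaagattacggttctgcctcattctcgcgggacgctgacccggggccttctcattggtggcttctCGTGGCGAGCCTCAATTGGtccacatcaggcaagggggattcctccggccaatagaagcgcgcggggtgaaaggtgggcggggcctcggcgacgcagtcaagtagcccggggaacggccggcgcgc
The element starts 65 bases before the start of Hspa5, 98 before that of Pdia6 and 126 before that of Creld2. Hsp90b1 holds 2 copies, 212 and 107 bases before its start, and the nearer copy and that of Creld2 are on the opposite strand. A match of letters is a description, not evidence of binding.

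The 4 genes differed in level but little in their log2 differences, and 3 of them were lower at an unadjusted p below 0.05. Hspa5, the chaperone BiP, ran from 138.8 through 277.1 to 397.72 TPM in control and from 78.41 through 116 to 358.76 TPM in propionate libraries (-0.87 ± 0.37, unadjusted p = 0.0261, or -0.35 with tissue covariates). Pdia6, a disulfide isomerase, ran from 49.64 through 104.8 to 134.86 TPM in control and from 31.48 through 48.18 to 127.51 TPM in propionate libraries (-0.73 ± 0.33, unadjusted p = 0.0352). Creld2 ran from 9.8 through 27.42 to 37.17 TPM in control and from 5.95 through 10.09 to 33.43 TPM in propionate libraries (-0.89 ± 0.40, unadjusted p = 0.0363). Hsp90b1, the chaperone GRP94, differed by -0.66 ± 0.34 and missed the threshold at an unadjusted p of 0.0662. In all of them propionate replicates 3 and 4 lay above control replicate 3 and the other propionate libraries.

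Other members of the response were lower too. Xbp1, its transcription factor, ran from 83.5 through 113.7 to 127.85 TPM in control and from 44.25 through 70.32 to 106.72 TPM in propionate libraries (-0.59 ± 0.20, unadjusted p = 0.00793). Ddit3, which encodes CHOP, ran from 27.69 through 35.8 to 46.84 TPM in control and from 13.42 through 21.11 to 39.24 TPM in propionate libraries (-0.63 ± 0.24, unadjusted p = 0.0147). Psat1, an ATF4 target that makes serine, ran from 6.25 through 24.23 to 46.11 TPM in control and from 3.02 through 5.85 to 32.63 TPM in propionate libraries (-1.32 ± 0.55, unadjusted p = 0.025). The 5 libraries with the lowest medians of this list were again the 5 with the lowest Wt1. Without propionate replicate 1 the count of lower genes was 1, and without propionate replicate 3 it was 20.

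The same order of libraries ran through most lists. In 29 of the 40 described lists the 5 lowest library medians were those of control replicate 3 and propionate replicates 1, 2, 5 and 6, the 5 libraries with the lowest Wt1. The lists outside that order included the clock activators, the list of gamma-chain cytokines, the short-chain fatty acid receptors and branched-chain amino acid breakdown. Lists that missed it by a single library included propionyl-CoA to succinyl-CoA, T cell, cytotoxic, complement, laminins, and clock repressors and outputs. In cytotoxic genes control replicate 2 (1.014) lay below propionate replicate 6 (1.744), and the other low-Wt1 libraries lay lower still.

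**Figure D4:**
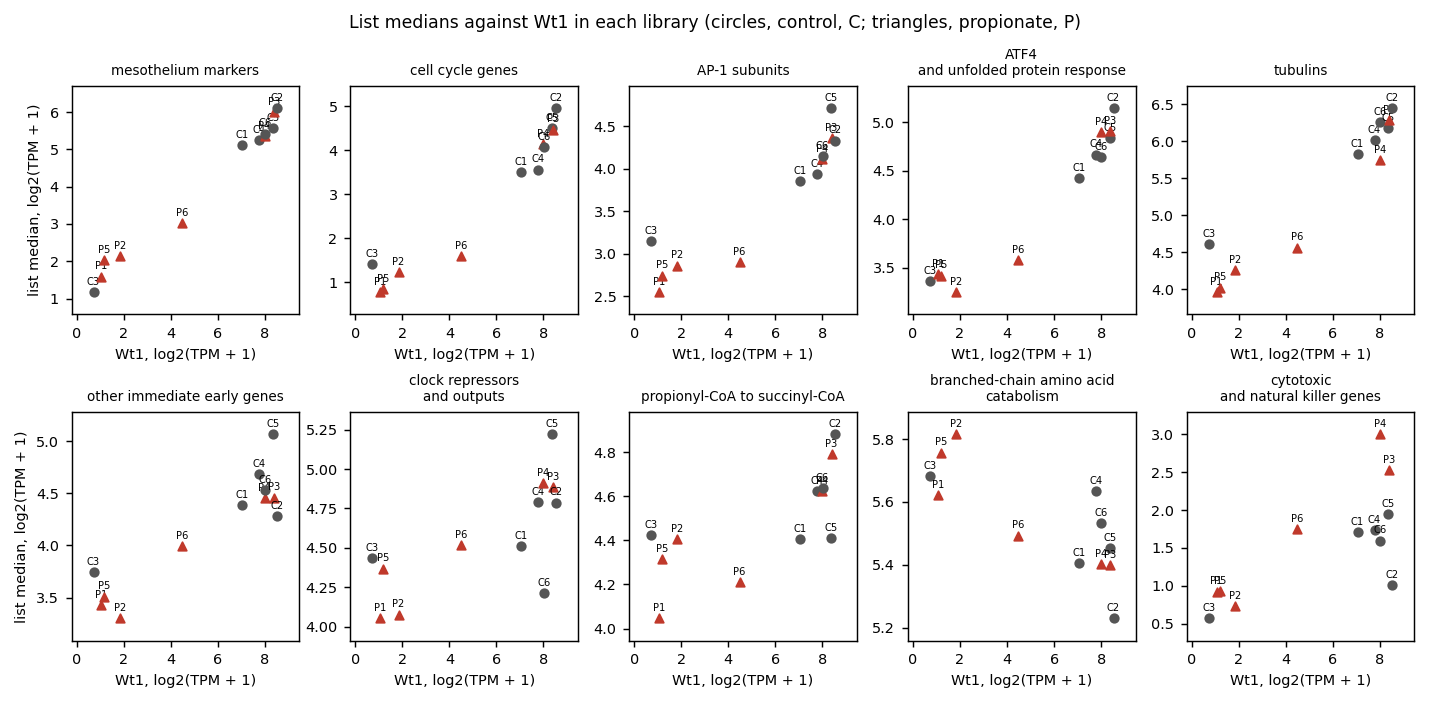
Median log2(TPM + 1) of 10 gene lists in each library (vertical axes) against that library's Wt1 on the same scale (horizontal axes), with circles for control and triangles for propionate. Control replicate 3 is the circle among the low-Wt1 triangles, and propionate replicates 3 and 4 are the triangles among the high-Wt1 circles.

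Amino acid, metal and redox genes next to that response had smaller shares of lower members. Of 30 amino acid transporters 5 (16.7%, against 9.13% of all genes) were lower, with a median of -0.44 (-0.14 after median-of-ratios scaling). After that scaling 5 were lower, against 5.14% of all genes, and with tissue covariates 6, against 4.37%. Slc38a2, an ATF4-driven carrier of small neutral amino acids, ran from 45.96 through 64.63 to 103.03 TPM in control and from 23.93 through 29.88 to 77.44 TPM in propionate libraries (-0.80 ± 0.28, unadjusted p = 0.01). Of 27 zinc and metal transporters and metallothioneins 6 (22.2%, against 9.13% of all genes) were lower, with a median of -0.45 (-0.14 after median-of-ratios scaling). The count was 4 after that scaling and 4 with tissue covariates. Slc11a2, the iron carrier DMT1, ran from 10.97 through 39.61 to 95.29 TPM in control and from 5.99 through 11.32 to 43.65 TPM in propionate libraries (-1.29 ± 0.52, unadjusted p = 0.0213). Of 30 glutathione and NRF2 genes 3 (10%) were lower, near the 9.13% of all genes, with a median of -0.53 (-0.15 after median-of-ratios scaling). Gclm, the regulatory subunit of the first enzyme of glutathione synthesis, ran from 14.67 through 28.47 to 37.96 TPM in control and from 9.55 through 12.99 to 27.24 TPM in propionate libraries (-0.79 ± 0.27, unadjusted p = 0.00843).

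DNA glycosylases, which cut damaged or misplaced bases out of DNA, were 10 of 10 below 0, against 79.3% of all genes, and 4 (40%, against 9.13%) were lower. The median was -0.48. After median-of-ratios scaling 1 was lower, 8 were below 0 and the median was -0.22. Smug1, which removes uracil, ran from 6.74 through 11.33 to 13.03 TPM in control and from 4.01 through 5.265 to 11.84 TPM in propionate libraries (-0.67 ± 0.22, unadjusted p = 0.00519). Tdg, a thymine glycosylase that also acts in DNA demethylation, ran from 17.17 through 20.21 to 23.25 TPM in control and from 9.74 through 13.27 to 21.21 TPM in propionate libraries (-0.45 ± 0.17, unadjusted p = 0.0166). The other pair were Ung (-0.71 ± 0.32) and Nthl1 (-0.51 ± 0.24). Leaving out 1 library moved the count from 1 to 7. Of 14 genes for the later steps of base excision repair 3 (21.4%, against 9.13%) were lower, with a median of -0.48 (-0.13 after median-of-ratios scaling).

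Membrane trafficking and phospholipid genes each had one member among the genes with the smallest p, while the family medians were near that of all genes. Vps37c, a subunit of the ESCRT-I complex that sorts receptors for breakdown, ran from 17.45 through 25.78 to 30.37 TPM in control and from 9.63 through 14.97 to 24.2 TPM in propionate libraries (-0.66 ± 0.20, unadjusted p = 0.00368). Vps37c was the 1 lower gene of 12 in ESCRT-0 and ESCRT-I, whose median was -0.32, or 0.03 after median-of-ratios scaling. Agpat5, an acyltransferase that makes phosphatidic acid, had narrow ranges: 9.95 through 10.43 to 11.28 TPM in control and 7.34 through 8.68 to 8.92 TPM in propionate libraries. No pair crossed, and the difference was -0.31 ± 0.10 (unadjusted p = 0.00349), close to the shift of all genes. It turned to 0.03 under median-of-ratios scaling and 0.10 under quantile normalization. Of the 18 genes of its family 3 (16.7%, against 9.13% of all genes) were lower. The family median was -0.30, the same as that of all genes, and 0.03 after median-of-ratios scaling. Fam104a behaved like Agpat5, with -0.32 ± 0.10 (unadjusted p = 0.00512) turning to 0.04 under both scalings, whereas Fbxl15, an F-box protein, differed by -0.68 ± 0.22 and kept its sign at -0.41 with median-of-ratios scaling.

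Ribosomal proteins and splicing factors gave a scale for such shifts. Of 82 tested cytosolic ribosomal proteins 0 were higher and 0 lower, although 81 differences were below 0. Their median was -0.34, or 0.04 after median-of-ratios scaling with 31 below 0, so the direction of the family depended on the scaling. All 32 SR proteins and hnRNPs, which choose splice sites, were below 0, against 79.3% of all genes, and 4 (12.5%) were lower, near the 9.13% of all genes. Their median was -0.60, or -0.23 after median-of-ratios scaling, when 27 were below 0. Srsf2 ran from 87.81 through 136.1 to 173.32 TPM in control and from 52.23 through 74.39 to 148.43 TPM in propionate libraries (-0.66 ± 0.27, unadjusted p = 0.0248).

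One interferon gene separated the groups. Oas2, an interferon-induced sensor of double-stranded RNA, ran from 4.0 through 4.71 to 6.11 TPM in control and from 1.8 through 2.805 to 3.61 TPM in propionate libraries. No pair of libraries crossed, and the difference was -0.65 ± 0.21 with an unadjusted p of 0.00565, or -0.34 with median-of-ratios scaling. Without overlap, control replicate 3 and propionate replicates 3 and 4 necessarily lay with their own groups, so nothing further can be read from their place in Oas2. Butyrate and combination libraries averaged 4.17 ± 1.56 and 4.66 ± 1.63 TPM (SD, n = 6 each), and propionate minus butyrate was -0.42 with an unadjusted p of 0.06. Oas2 was the only gene lower at an unadjusted p below 0.05 of 25 in the type I interferon response, whose median was -0.44 (-0.09 after median-of-ratios scaling). Its relative Oas1a ran from 6.38 through 11.54 to 14.55 TPM in control and from 2.82 through 7.24 to 13.9 TPM in propionate libraries (-0.54 ± 0.30, unadjusted p = 0.0858). Among 24 complement genes 1 was lower, C5ar1, the receptor for the fragment C5a, with -0.90 ± 0.37 and an unadjusted p of 0.0246, and the list median was -0.23 (0.09 after median-of-ratios scaling).

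Transcript use was compared for genes with several transcripts. The share of a gene's TPM held by its leading transcript was tested in 17 of the named genes with an exact permutation test, two-sided, over every arrangement of 6 and 6 libraries, whose smallest possible p is 0.002165. In 0 of the 17 was p below 0.05, before or after adjustment. For Jun that outcome was fixed, because its 2 transcripts have identical values and the share is always 50%. In Cd8a, a gene of low level, the share ran from 0 to 100% in control libraries, so the test could show little there. The smallest p belonged to Tfb2m, whose leading transcript held 95.1 ± 1.63% in control and 89.2 ± 6.34% in propionate libraries (SD, n = 6 each, exact permutation p = 0.0628). In Il15 the leading transcript held 41.4 ± 15.3% and 31.8 ± 11.03% (SD, n = 6 each, exact permutation p = 0.232). Among 32725 transcripts tested one by one with limma, 0 passed an adjusted p of 0.05 (smallest 0.417), and at an unadjusted p below 0.05 there were 232 higher (0.709%) and 2863 lower (8.75%).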

How the data were processed

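The authors deposited 1 table of TPM per transcript for 24 libraries. Per the submitters' processing notes, fastp, HISAT2 and StringTie were used with mm39; their versions are not named there. Per the labels' protocols, RNA was TRIzol-extracted, poly(A)-selected and made into stranded libraries. The deposited TPM of the 149132 transcripts were summed by gene name into 56422 genes, leaving out 1001 transcripts with no name (0.174 to 0.470% of a library's TPM). Genes at 1 TPM or more in at least 6 libraries (15163) were tested on log2(TPM + 1) with limma 3.58.1 (R 4.3.3, trend and robust moderation). The 24 libraries entered 1 fit with 1 term per group and no block, since the labels state no pairing. Correlations of same-numbered libraries were mixed and did not settle whether they are paired. The p-values were Benjamini-Hochberg adjusted with a threshold of 0.05. TPM keep no counts, so the precision that depth gives is unknown. The genes with the 12 smallest p-values each way, up to 4 members of each of 40 described lists, preset genes of propionate, interleukin-15 and checkpoint biology, and, added after their values were seen, the genes whose groups did not overlap and the genes with an ER stress element were named, and values of some listed genes are not reported here. The members and the 118 lists were chosen with earlier results of these data known. The fit was tested on simulated data, and 26 alternatives were tried. Tables used pandas 2.3.3 and numpy 2.4.6.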

Additional observations from a re-analysis of the deposited data

Results flagged for a closer look

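In 11 of 262 combinations of a named gene and a group, 1 library stood apart by Dixon's ratio, the gap to its nearest neighbour over the group's range on the log2(TPM + 1) scale, with a critical value of 0.625 for 6 libraries. Chance alone flags about 1 in 20 such groups. All 11 were in the control group, and 10 of them were control replicate 3, the control library with the least Wt1.

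Control replicate 3 was the highest control library for Inmt at 19.49 TPM (ratio 0.626), for Retnla at 932.96 TPM (0.654) and for Dkk2 at 4.56 TPM (0.797). It was the lowest for Wt1 at 0.65 TPM (0.81), for Igfbp2, a secreted IGF-binding protein, at 0.34 TPM (0.782), and for Spp1, which encodes osteopontin, at 5.6 TPM (0.679). It was also the lowest for Acsf2, an acyl-CoA synthetase, at 4.25 TPM (0.648), for Mst1r at 1.87 TPM (0.647), for Creld2 at 9.8 TPM (0.64) and for Hdac6, a cytoplasmic deacetylase, at 2.06 TPM (0.63). The remaining case was Fos, where control replicate 5 was the highest at 95.18 TPM (0.734). In the first 3 genes the value lay inside the propionate range, and the part of tissue content in these values was not tested.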

How the results depend on the processing

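The count of 0 genes past an adjusted p of 0.05 by limma held under 25 of 26 alternatives. With weights per library it was 11434 genes and 16292 transcripts; 1526 genes were then higher and 10147 lower at an unadjusted p below 0.05. Those weights, fitted to the same libraries, ran from 0.127 for propionate replicate 3 to 6.761 for propionate replicate 5. The count of 66 higher genes was 264 with no filter, 39 with a filter of 5 TPM, 513 under median-of-ratios scaling and 564 under quantile normalization. The count of 1385 lower genes was 780 and 693 under those scalings, 533 with propionate and control libraries alone and 663 with tissue covariates. Leaving out 1 library gave 27 (without control replicate 2) to 170 (without propionate replicate 3) higher genes and 228 to 6177 lower genes. The lower count was 5335 without control replicate 3 and 4728 without propionate replicate 4, and 1 transcript passed an adjusted p of 0.05 without control replicate 3.

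Same-numbered propionate and control libraries correlated in their deviations from the group means by -0.865 to 0.128 by title number. By library number the values were 0.015 for number 1, 0.641 for 4, 0.047 for 5, 0.427 for 6 and -0.395 for 7. Whether the numbers pair the libraries cannot be told from these mixed values. The pairs are few, and the first principal component of all 24 libraries took 62.4% of the variance. With a replicate block by title number 64 genes were higher and 1166 lower, with one by library number 51 and 3205, and 0 passed the adjusted p in both.

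Of 3383 values of named genes under alternatives 46, in 20 genes, changed sign. With median-of-ratios scaling these were Agpat5 0.033, Fam104a 0.038, Ffar2 0.057, Hdac2 0.154, Hdac3 0.077, Bmal1 0.107, Agpat1 0.119, Suclg2 0.116, Hsd17b10 0.116, Hdac5 0.049 and Gripap1 0.005. With quantile normalization they were Agpat5 0.096, Fam104a 0.036, Ffar2 0.222, Hdac2 0.092, Hdac3 0.002, Clock 0.024, Bmal1 0.132, Lrp5 0.043, Agpat1 0.053, Suclg2 0.051 and Gripap1 0.024. With tissue covariates they were Il15ra -0.306, Hdac2 0.043, Hdac3 0.009, Pdcd1 0.15 and Acss1 -0.047, and with weights per library Cd8a -0.558, Cd274 -0.197, Or51e1 -0.069 and Gzma -0.01. The block by library number turned Il15ra to -0.142, Cd8a to -0.01 and Or51e1 to -0.025, a pseudocount of 0.1 turned Cd8a to -0.087, and the leading transcript alone turned Ffar2 to 0.08. Leaving out 1 library at a time gave Il15ra -0.127 to 0.267, Cd8a -0.138 to 0.14, Ffar2 -0.137 to 0.015 and Or51e1 -0.018 to 0.192. Of 3066 list medians 64 moved by more than the spread between replicates. The causes were not tested.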

Other observations

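Over all 24 libraries the genes most like Il15 by Spearman's correlation of log2(TPM + 1) were Klhl38 (0.778), 1810014B01Rik (0.758) and Gm29216 (0.737). Those most like Nr1d1 were Actn3 (0.843), which encodes an alpha-actinin of fast muscle fibres, Rapsn (0.841), which clusters acetylcholine receptors at the nerve-muscle junction, and Gm46412 (0.833). These values are a description: the libraries share their tissue content, and no test was made.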
